A study of Arabidopsis thaliana and Marchantia polymorpha and Mesotaenium endlicherianum with 120 samples.

Results

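The 10 genes described here encode regulators and enzymes of aliphatic glucosinolate synthesis in Arabidopsis thaliana. They were picked by gene identifier, after an earlier reading of these libraries had shown them low together in the wild-type line Col-0 in warm dim light, and they are 10 of the 32833 genes in the deposited Arabidopsis table. All 10 passed the filter on low counts, as did 22828 genes in all. Because the Col-0 responses chose the genes, they are given below as a description with no test, and tests are given within and between the mutant lines.

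Aliphatic glucosinolates are sulfur-rich defence compounds of the cabbage order, made from methionine and broken down to toxic isothiocyanates when myrosinase meets them in damaged tissue. Methionine is first lengthened by rounds of chain elongation, then converted through an aldoxime to the glucosinolate core, and the side chain is modified last. The MYB factors MYB28, MYB29 and MYB76 switch on the genes of all these steps and interact with the bHLH factors MYC2, MYC3 and MYC4.

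Seedlings of 7 days were grown for 2 days at 20 °C and light 100 and then for 5 days at 16 or 24 °C under unbroken white light of either 10 or 100 µmol photons per square metre and second, called light 10 and light 100 here. The lines were Col-0, Atpif4-2, Atphyb-9 and Athy5-2, the last 3 being mutants of the growth-promoting bHLH factor PIF4, of the red-light and temperature receptor phytochrome B and of the light-response bZIP factor HY5. Each of the 16 groups of line, temperature and light held 3 RNA-seq libraries, 48 in all. Whole seedlings were extracted, so fewer cells of a type and less RNA per cell cannot be told apart. The labels do not say whether replicates came from separate cultures, and p-values measure only the spread between these libraries.

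Total counts per library ran from 30806701 to 44043446. PHYB was lower in all libraries of Atphyb-9 than in those of Col-0 in each of the 4 conditions. PIF4 in Atpif4-2 and HY5 in Athy5-2 separated from Col-0 in 3 conditions each, and overlapped it at 16 °C and light 100 (9.96 to 10.7 against 10.7 to 12.7 CPM for PIF4) and at 16 °C and light 10 (4.36 to 6.29 against 5.14 to 7.19 CPM for HY5), where the lines were taken by their labels. CPM (counts scaled to sequencing depth) are relative to library sizes scaled by the trimmed mean of M-values (TMM). The 15 nuclear and organellar rRNA genes took 0.902% to 33.4% of the counts in the 24 libraries at light 10 (median 8.12%) and 0.535% to 14.1% in the 24 at light 100 (median 0.874%). They took most in Athy5-2 at 24 °C and light 10, 23.3% to 33.4%. Of the 9 root markers and 3 myrosin-cell markers none was at 0 in every library, WOX5 being at 0 in 11 libraries and NRT2.1 in 8. The root markers summed to 1092 to 2484 CPM at light 10 and 1450 to 2700 CPM at light 100. PYK10 alone ran from 900 to 2600 CPM, so these sums mostly follow that gene. The 9 root markers did not move together, their log2 changes with light at 16 °C in Col-0 running from -2.28 to 3.13. The myrosin-cell markers summed to 441 to 1654 CPM at light 10 and 751 to 3165 CPM at light 100.

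The 3 regulator genes lie on chromosome 5 in the TAIR10.1 assembly of RefSeq, with MYB28 (AT5G61420) at chr5:24689069-24691187 on the minus strand. MYB29 (AT5G07690, chr5:2446669-2448584) and MYB76 (AT5G07700, chr5:2450027-2451807) are neighbours on the plus strand, 1442 bases apart. MAM1 (AT5G23010, chr5:7703041-7706973) and MAM3 (AT5G23020, chr5:7718118-7721866) lie 11144 bases apart, and CYP79F2 (AT1G16400, chr1:5605044-5607498) and CYP79F1 (AT1G16410, chr1:5608682-5612064) 1183 bases apart, both pairs on the plus strand with 0 coding genes between. BCAT4 (AT3G19710, chr3:6846969-6849582, minus strand), CYP83A1 (AT4G13770, chr4:7990429-7992429, minus strand) and FMO GS-OX3 (AT1G62560, chr1:23159734-23162881, plus strand) stand apart from the others. The deposited table holds gene identifiers and no coordinates, and the positions come from matching those identifiers. The coding sequences of CYP79F1 and CYP79F2 were 91.9% identical and shared 3.44% of their 50-base windows exactly, so the split of reads between this pair is less certain than for the others. MAM1 and MAM3 were 83.8% identical, and the 3 MYB genes 75.4% to 78.1%, with no shared 50-base window.

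The 250 bases before the gene start were read for motifs that PIF and MYC factors (CACGTG, and CATGTG with its reverse complement CACATG) and bZIP factors such as HY5 (ACGT, which also lies within CACGTG) are known to bind, on both strands. CACGTG was found in 1 of the 10 windows, that of CYP83A1, against 6.46% of the 27561 windows of the same length before all coding genes. CATGTG or CACATG was found in 0 of the 10, against 11.1%. ACGT was found in 8 of the 10, all except MYB29 and MAM1, against 44% of all windows. Among 21 other genes of the aliphatic pathway the counts were 2, 1 and 12. A match is a run of letters and not a shown binding site. Shown are the windows of CYP83A1, with CACGTG 43 bases before the start; of the neighbours CYP79F1 and CYP79F2, which differed widely in their range of levels; and of MYB28, whose level varied least. The windows are chr4:7992430-7992679 (minus), chr1:5608432-5608681 (plus), chr1:5604794-5605043 (plus) and chr5:24691188-24691437 (minus), in TAIR10.1, read 5′ to 3′ towards the gene, with the motifs in capitals.
CYP83A1: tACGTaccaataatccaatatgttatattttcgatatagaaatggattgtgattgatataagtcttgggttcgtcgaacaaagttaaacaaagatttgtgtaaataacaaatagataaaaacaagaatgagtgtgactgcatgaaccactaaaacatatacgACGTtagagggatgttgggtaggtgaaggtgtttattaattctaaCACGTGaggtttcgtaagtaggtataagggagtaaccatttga
CYP79F1: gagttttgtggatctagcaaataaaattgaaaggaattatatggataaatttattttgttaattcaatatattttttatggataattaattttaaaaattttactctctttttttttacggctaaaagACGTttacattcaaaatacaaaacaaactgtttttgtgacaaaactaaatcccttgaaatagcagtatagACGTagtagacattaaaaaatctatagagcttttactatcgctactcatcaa
CYP79F2: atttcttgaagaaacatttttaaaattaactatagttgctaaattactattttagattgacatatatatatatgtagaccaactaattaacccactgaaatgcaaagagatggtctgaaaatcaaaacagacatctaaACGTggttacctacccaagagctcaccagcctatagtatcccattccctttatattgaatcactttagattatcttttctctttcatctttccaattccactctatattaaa
MYB28: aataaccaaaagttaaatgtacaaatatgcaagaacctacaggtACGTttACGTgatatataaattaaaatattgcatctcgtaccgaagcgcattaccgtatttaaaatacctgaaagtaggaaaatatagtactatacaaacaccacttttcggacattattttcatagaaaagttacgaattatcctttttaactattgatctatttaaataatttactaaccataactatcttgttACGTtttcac

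In Col-0 the 10 genes were lowest together in warm dim light. From 16 to 24 °C at light 10 every gene was lower in all 3 warm libraries than in all 3 cool ones, with a median log2 change of -3.70, while the median of all genes was near 0. The share of all genes separated in this way was not counted. CYP79F1, whose enzyme turns chain-elongated methionines into aldoximes, stood at 7.82, 5.55 and 6.37 CPM at 16 °C and at 0, 0 and 0.152 CPM at 24 °C. Its warm group held 7 counts in all. BCAT4, the aminotransferase that opens chain elongation, stood at 11.1, 5.73 and 5.05 CPM at 16 °C and at 0.274, 0 and 0.109 CPM at 24 °C. MYB28 moved least, from 36.4, 37.4 and 39.4 CPM to 26.4, 24.5 and 26.9 CPM, a log2 shift of -0.54 ± 0.12 (SE). Its cool and warm libraries still did not overlap.

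At light 100 the Col-0 genes stood far higher and differed less between temperatures. The median log2 change with warmth was -0.26, against -3.70 at light 10. CYP79F1 stood at 83.7, 88.3 and 84.8 CPM at 16 °C and at 65.8, 73.5 and 78.6 CPM at 24 °C. MAM3, a methylthioalkylmalate synthase of chain elongation that also makes long chains, moved most, from 39.5, 40.1 and 40.2 CPM to 7.58, 15.8 and 11.2 CPM. The median log2 change from light 10 to light 100 was 2.88 at 16 °C and 6.22 at 24 °C. In Col-0 11.4% of all genes tested were called lower with warmth at light 10 and 17% at light 100, 17.4% higher with light at 16 °C and 14.2% at 24 °C, and nothing is read from the 10 genes against these shares.

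**Figure D1:**
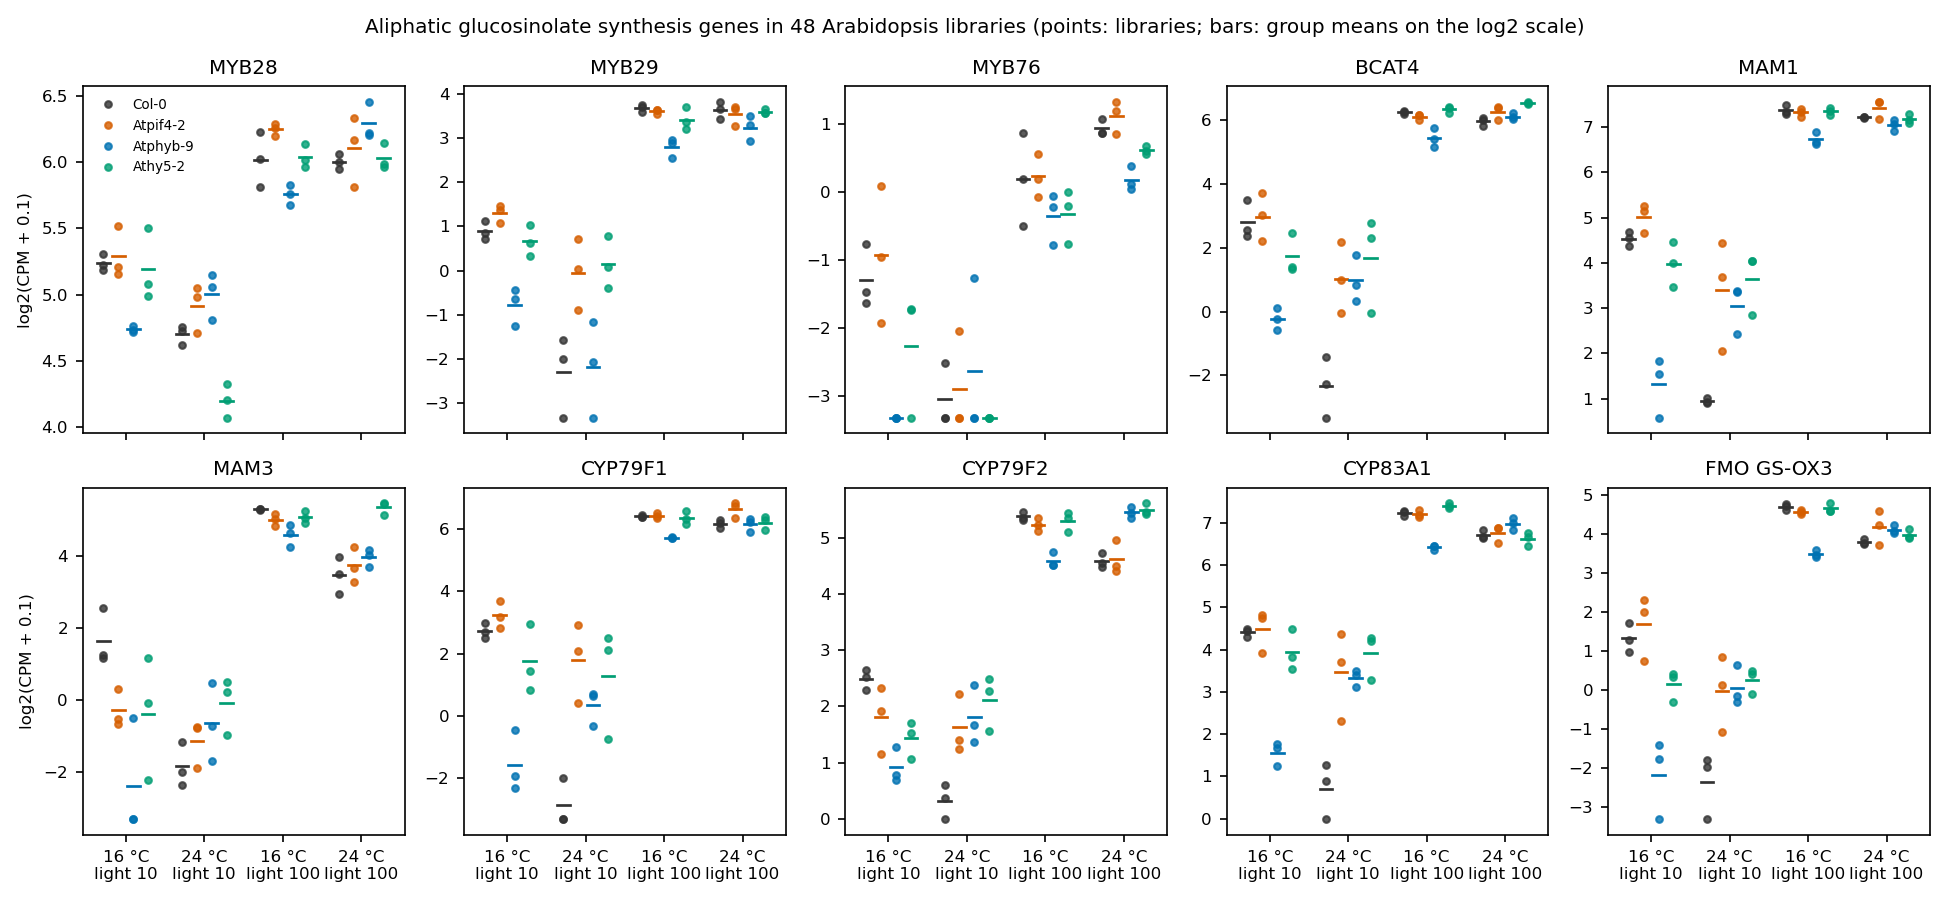
Levels of the 10 genes in the 48 libraries, 1 panel per gene, as log2(CPM + 0.1) on axes of different range; points are libraries, bars are means of the 3 log2 values of a group, and colours are lines. The groups at light 100 sit above those at light 10 in every panel, with MYB76 the gene whose libraries overlap, and the Col-0 group at 24 °C and light 10 has the lowest bar in every panel except those of MYB28, MYB76 and MAM3.

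Over the 16 groups the genes spanned very different ranges. Mean levels of MYB28 spanned 4.29-fold, from 18.3 CPM in Athy5-2 at 24 °C and light 10 to 78.6 CPM in Atphyb-9 at 24 °C and light 100. Those of CYP79F2, whose enzyme acts on long-chain substrates, spanned 38.7-fold. Those of its neighbour CYP79F1 spanned 1991-fold, the lowest resting on the 7 counts above, and those of BCAT4 726-fold, the lowest resting on 16 counts. The spread lay at light 10. Among the 8 groups at light 100 the ratio of highest to lowest mean ran from 1.46 for MYB28 to 3.58 for MAM3, and among the 8 groups at light 10 from 2.15 for MYB28 to 189 for CYP79F1, leaving out MYB76, which had no counts in 2 dim groups. The order of neighbouring groups at light 100 mostly could not be resolved: for MAM1, the synthase of short chains, the highest mean was 174 CPM in Atpif4-2 at 24 °C, from 146, 188 and 189 CPM, and the Col-0 libraries at 16 °C, at 157, 179 and 162 CPM, lay within that range.

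The rise with light was present in all 3 mutant lines. Their libraries are not those of the Col-0 responses that chose the genes, although earlier results of these data were known at that choice. In the mutant lines 9 of the 10 genes were higher in each of the 18 libraries at light 100 than in each of the 18 at light 10, a separation found for 1.2% of the 22828 genes. MYB76 was the exception, its lowest library at light 100 (0.482 CPM) lying below its highest at light 10 (0.961 CPM). By edgeR's quasi-likelihood F test with Benjamini-Hochberg adjustment over all 22828 genes, called at an adjusted p under 0.05, light raised 9 of the 10 genes at 16 °C in Atpif4-2, and all 10 in Atphyb-9 and in Athy5-2. At 24 °C it raised all 10 in each of the 3 lines. The shares of all genes called higher were 24.5%, 22.8% and 22.5% at 16 °C and 10.5%, 19.2% and 30.7% at 24 °C, in the order Atpif4-2, Atphyb-9, Athy5-2. The myrosin-cell markers moved with light at 24 °C too, 2, 3 and 3 of the 3 being called higher in that order. TGG2, a myrosinase gene, went from 60.6 to 105 CPM up to 736 to 826 CPM in Atpif4-2 (3.21 ± 0.18 on the log2 scale), and changed by 5.55 ± 0.20 in Atphyb-9 and 4.06 ± 0.19 in Athy5-2. The other 2 markers changed less. In the same order TGG1 changed by 0.62 ± 0.12, 0.84 ± 0.12 and 1.39 ± 0.12. FAMA changed by 0.38 ± 0.17 (not called), 0.83 ± 0.18 and 0.84 ± 0.18. At 16 °C light raised TGG2 in each mutant line (1.38 ± 0.17, 2.93 ± 0.18 and 0.97 ± 0.17), and TGG1 was lower in Atpif4-2 and Athy5-2 and FAMA not called. The part of these markers in the result was not tested. The gene not called was MYB76 in Atpif4-2 at 16 °C, with a log2 change of 1.09 ± 0.69 (adjusted p = 0.2).

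Among the regulators, MYB28 rose least and MYB29 more. In Atpif4-2 at 24 °C MYB28 went from 33.1, 31.5 and 26 CPM at light 10 to 56.2, 80.4 and 71.9 CPM at light 100, a log2 change of 1.2 ± 0.12 (edgeR adjusted p = 6.41e-10). In the same groups MYB29 went from 0.92, 1.55 and 0.436 CPM to 9.55, 12.6 and 12.9 CPM, a change of 3.60 ± 0.36 (adjusted p = 1.02e-09). No library overlapped in either gene. In Atphyb-9 at 24 °C MYB29 rose by 5.98 ± 0.47 on the log2 scale, from 0.35, 0 and 0.14 CPM to 7.53, 11.1 and 9.65 CPM.

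Among the chain elongation genes, MAM1 in Atphyb-9 at 16 °C went from 1.4, 3.46 and 2.83 CPM to 102, 119 and 99.4 CPM, a log2 shift of 5.36 ± 0.41 (edgeR adjusted p = 1.37e-12). MAM3 in Athy5-2 at 24 °C went from 1.07, 0.406 and 1.31 CPM to 43.9, 35.6 and 44.4 CPM, a change of 5.49 ± 0.59 (adjusted p = 1.54e-09). BCAT4 in the same groups went from 0.865, 4.82 and 6.77 CPM to 94.8, 90.6 and 92.4 CPM, a change of 4.53 ± 0.50 (adjusted p = 2.56e-09). In each of these the dim and bright libraries lay far apart, although the dim libraries of BCAT4 spread widely.

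Of the core enzymes, CYP79F1 in Atphyb-9 at 16 °C went from 0.16, 0.102 and 0.635 CPM to 54.3, 52.4 and 52.5 CPM, a log2 shift of 7.40 ± 0.68 (edgeR adjusted p = 1.13e-10). CYP83A1, the cytochrome P450 that oxidizes the aldoximes, went there from 2.28, 3.33 and 3.08 CPM to 86.9, 87.4 and 82.1 CPM, a change of 4.88 ± 0.36 (adjusted p = 7.13e-13). FMO GS-OX3, the flavin monooxygenase that adds an oxygen to the sulfur of the side chain, went there from 0, 0.271 and 0.19 CPM to 12, 10.4 and 10.9 CPM, a change of 6.07 ± 0.50 (adjusted p = 4.21e-12). The smallest changes with light among enzyme genes in a mutant line were those of MAM1 in Atpif4-2 at 16 °C (2.29 ± 0.34) and of CYP83A1 in Athy5-2 at 24 °C (2.65 ± 0.32). The light calls of the 9 genes other than MYB76 kept their side of the threshold whichever 1 library was left out. That of MYB76 in Athy5-2 at 16 °C (2.33 ± 0.81) ended without replicate 3 at light 10 (adjusted p = 0.0871) or replicate 2 at light 100 (adjusted p = 0.0521).

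Warmth in dim light gave calls that were all lower in Atpif4-2 and mostly higher in Atphyb-9, and few calls in Athy5-2. In Atpif4-2 it lowered 7 of the 10 genes and raised none, where 13.9% of all genes were called lower. In Atphyb-9 it raised 4 and lowered 1, against 10.9% and 12.2% of all genes. In Athy5-2 it raised 1 and lowered 2, neither above the shares of all genes, 19.7% and 21.4%. The responses of Athy5-2 and Atpif4-2 differed for 3 genes in the test given below, beside 33.9% of all genes. The median log2 changes of the 10 genes were -1.24, 1.71 and -0.15 in that order, with medians of all genes near 0.

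In Atpif4-2 the genes lower at 24 °C were the 3 MYB genes, BCAT4, MAM1, CYP83A1 and FMO GS-OX3. FMO GS-OX3 went from 3.88, 1.57 and 4.87 CPM to 0.982, 1.69 and 0.374 CPM, a log2 shift of -1.77 ± 0.37 (edgeR adjusted p = 0.000438), with 1 warm library inside the cool range. MAM1 went from 35.2, 25.2 and 37.9 CPM to 12.8, 21.6 and 4.05 CPM, a change of -1.36 ± 0.33 (adjusted p = 0.00248), without overlap. The 24 °C libraries of this line at light 10 stood apart from one another, the 10 genes summing to 41 CPM in replicate 3 and up to 93.6 CPM in the others. Without that replicate 4 of the 7 genes were called. The calls ended were those of MYB28 (adjusted p = 0.128), MYB29 (0.0601) and CYP83A1 (0.207). Single libraries of the 16 °C group also ended calls: replicate 3 for MYB28 (0.15) and CYP83A1 (0.125), and replicate 1 for MYB76 (0.0566) and CYP83A1 (0.104). CYP83A1 was not called without replicate 1 of the warm group either (0.0721). With rRNA share in the model CYP83A1 was not called (0.162). The 3 genes not called had log2 changes of -1.17 ± 0.47 (CYP79F1, adjusted p = 0.0623), -0.96 ± 0.73 (MAM3) and -0.21 ± 0.25 (CYP79F2).

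In Atphyb-9 the genes higher at 24 °C were MAM1, CYP79F2, CYP83A1 and FMO GS-OX3. MAM1 went from 1.4, 3.46 and 2.83 CPM to 5.29, 10.2 and 10.3 CPM, a log2 shift of 1.74 ± 0.38 (edgeR adjusted p = 0.000819). CYP83A1 went from 2.28, 3.33 and 3.08 CPM to 10.4, 8.51 and 11.1 CPM, a change of 1.78 ± 0.34 (adjusted p = 0.000176). FMO GS-OX3 went from 0, 0.271 and 0.19 CPM to 0.701, 1.46 and 0.787 CPM, a change of 2.61 ± 0.60 (adjusted p = 0.00149). Every warm library of these genes lay above every cool one. MYB29 went the other way, from 0.639, 0.543 and 0.317 CPM to 0.35, 0 and 0.14 CPM, a change of -1.72 ± 0.60 (adjusted p = 0.0321), with overlap and 15 counts in the warm group. Its call ended without replicate 1 (adjusted p = 0.11) or 2 (0.0857) of the cool group, or replicate 2 (0.2) or 3 (0.0847) of the warm group. That of CYP79F2 (0.99 ± 0.28) ended without replicate 3 of the cool group (0.0506) or of the warm group (0.123). BCAT4 (1.43 ± 0.61, adjusted p = 0.0898) and CYP79F1 (2.00 ± 0.81, adjusted p = 0.0722) were higher in all warm libraries and not called, and DESeq2 called 8 of the 10 genes here. Of the myrosin-cell markers, TGG1 (-0.65 ± 0.12) and TGG2 (-1.75 ± 0.18) were called lower with warmth in these groups, and FAMA (-0.42 ± 0.18) was not called.

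In Athy5-2 most of the enzyme genes showed no called change. MYB28 fell from 45.2, 33.8 and 31.6 CPM to 19.9, 18.3 and 16.7 CPM, a log2 shift of -1.01 ± 0.13 (edgeR adjusted p = 1.83e-08), without overlap. MAM1 stood at 15.9, 10.9 and 22 CPM at 16 °C and at 7.09, 16.4 and 16.3 CPM at 24 °C (-0.30 ± 0.34, adjusted p = 0.51). CYP83A1 stood at 14.1, 11.6 and 22.3 CPM and at 9.64, 18.4 and 19.3 CPM (-0.02 ± 0.31). The groups of both enzyme genes overlapped. CYP79F2 was called higher (0.69 ± 0.27, adjusted p = 0.0418) with overlapping libraries. Its call ended without replicate 2 (0.177) or 3 (0.0646) of the cool group or replicate 2 (0.118) or 3 (0.211) of the warm group, and with the rRNA share of each library as a covariate (0.113). This line had 23.3% to 33.4% of its counts in rRNA genes in warm dim light, against 2.90% to 13.7% at 16 °C.

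**Figure D2:**
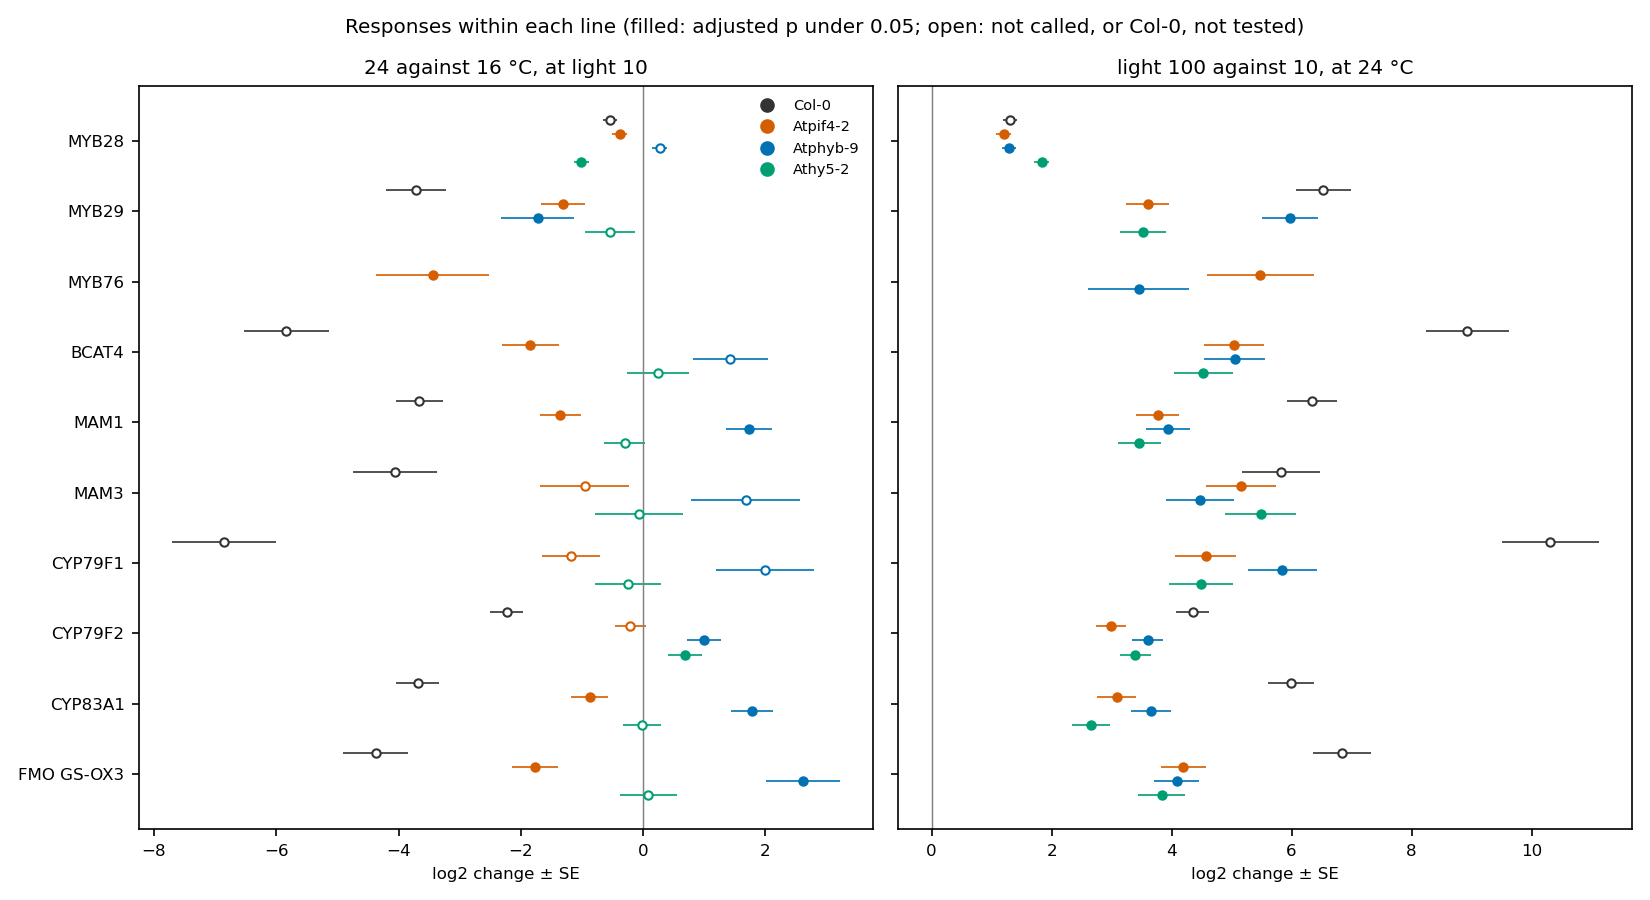
Log2 changes with warmth at light 10 (left) and with light at 24 °C (right) within each line, with standard errors from the edgeR fit over 48 libraries; filled points were called at an adjusted p under 0.05 and open points were not, or are Col-0, which was not tested. MYB76 is left out where a group held 3 counts or fewer. In the left panel the Atphyb-9 points lie right of those of Atpif4-2 for all genes drawn in both except MYB29, and in the right panel every point lies above 0.

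The differences between these responses were tested line against line. The change with warmth at light 10 was higher in Atphyb-9 than in Atpif4-2 for 8 of the 10 genes and lower for 0, where 5.78% of all genes were called higher. FMO GS-OX3 differed by 4.38 ± 0.70 on the log2 scale (edgeR adjusted p = 3.3e-05) and MAM1 by 3.09 ± 0.50 (adjusted p = 5.32e-05). CYP83A1 differed by 2.65 ± 0.45, BCAT4 by 3.28 ± 0.76 and MYB28 by 0.66 ± 0.17. CYP79F1 (3.17 ± 0.93), CYP79F2 (1.2 ± 0.38) and MYB76 were called too, and MYB29 (-0.41 ± 0.69) and MAM3 (2.64 ± 1.15) were not. Leaving out single libraries gave 6 to 8 called genes. CYP79F1 was not called without replicate 1 (adjusted p = 0.0565) or 2 (0.068) of Atphyb-9 at 16 °C or replicate 2 at 24 °C (0.0508). CYP79F2 was not called without any 1 of 7 dim libraries, with adjusted p from 0.0527 to 0.145: replicates 2 and 3 at 16 °C and 1 and 3 at 24 °C of Atpif4-2, and replicates 2 and 3 at 16 °C and 3 at 24 °C of Atphyb-9. With rRNA share in the model it was not called either (0.0683). MYB76 was not called without replicate 1 of Atphyb-9 at 24 °C, the one library of both its dim groups with any counts.

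Between Athy5-2 and Atpif4-2 3 genes differed in this response, BCAT4 by 2.09 ± 0.69, FMO GS-OX3 by 1.85 ± 0.60 and MYB28 by -0.63 ± 0.17, where 33.9% of all genes were called in either direction, a share above that of the 10 genes. BCAT4 was not called without replicate 3 of Atpif4-2 at either temperature (adjusted p = 0.0711 and 0.0566), replicate 1 of Athy5-2 at 16 °C (0.052) or replicate 3 at 24 °C (0.102), nor FMO GS-OX3 without replicate 3 of Atpif4-2 at 16 °C (0.0532). None of the 3 was called with rRNA share in the model, at adjusted p-values of 0.0676 to 0.21. Between Athy5-2 and Atphyb-9 5 genes were lower in Athy5-2, against 8.48% of all genes: MYB28 by -1.28 ± 0.18 (adjusted p = 3.1e-06), MAM1 by -2.04 ± 0.51, CYP83A1 by -1.80 ± 0.46, FMO GS-OX3 by -2.53 ± 0.78 and MYB76. FMO GS-OX3 was not called without replicate 1 at 16 °C (0.0663) or 2 at 24 °C (0.0837) of Atphyb-9, or replicate 1 of Athy5-2 at 16 °C (0.0526) or 24 °C (0.0512), nor MYB76 without replicate 1 of Atphyb-9 at 24 °C.

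For the change with light at 24 °C, the differences called between mutant lines were those of MYB28 and MYB29. MYB29 rose more in Atphyb-9 than in Atpif4-2, by 2.37 ± 0.62 (edgeR adjusted p = 0.022), against 1.71% of all genes called higher, and less in Athy5-2 than in Atphyb-9, by -2.46 ± 0.64 (adjusted p = 0.00774). MYB28 rose more in Athy5-2 than in Atpif4-2, by 0.63 ± 0.17 (adjusted p = 0.00398), against 17.6% of all genes called higher, and more than in Atphyb-9, by 0.54 ± 0.17 (adjusted p = 0.027), where 15.7% were called in either direction. The MYB29 difference between Atphyb-9 and Atpif4-2 was not called without replicate 2 at light 10 (0.0763) or 1 at light 100 (0.0623) of Atpif4-2, or replicate 2 (0.0788) or 3 (0.0601) at light 10 or 2 at light 100 (0.062) of Atphyb-9. The MYB28 difference between Athy5-2 and Atphyb-9 was not called without any 1 of 6 libraries (adjusted p from 0.0577 to 0.0778): replicates 1 and 2 at light 10 and 1 and 3 at light 100 of Atphyb-9, and replicate 3 at light 10 and 1 at light 100 of Athy5-2. With rRNA share in the model MYB28 was called in neither of its comparisons (0.114 and 0.122). The differences between a mutant's response and that of Col-0 were not tested, since the Col-0 responses chose the genes.

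In brighter light warmth changed few of the genes. In Atpif4-2 MAM3 was lower at 24 °C (33, 28.8 and 36.1 against 9.73, 19.2 and 12.7 CPM; -1.23 ± 0.43, edgeR adjusted p = 0.0284), as was CYP79F2 (37.4, 34.9 and 40.6 against 21.2, 30.9 and 22.4 CPM; -0.60 ± 0.22, adjusted p = 0.0377), 2 of the 10 where 14.2% of all genes were called lower. Neither gene overlapped, yet the call of MAM3 ended without replicate 1 or 3 of either group (adjusted p from 0.0558 to 0.135), and that of CYP79F2 without any replicate of the 16 °C group or replicate 1 or 3 of the 24 °C group (0.053 to 0.161). In Atphyb-9 MYB28 (0.54 ± 0.12, adjusted p = 0.000807) and CYP79F2 were higher at 24 °C, where 10.7% of all genes were. CYP79F2 went there from 22.7, 26.7 and 22.8 CPM to 46.8, 43.3 and 40.8 CPM, a log2 shift of 0.86 ± 0.22 (adjusted p = 0.00407), opposite in sign to Atpif4-2; the difference at light 100 was not tested. In Athy5-2 CYP83A1 alone was called lower, from 163, 176 and 169 CPM to 108, 101 and 87.3 CPM (-0.78 ± 0.29, adjusted p = 0.0311), against 21.7% of all genes. That call ended without any replicate of the cool group or replicate 2 or 3 of the warm group (adjusted p from 0.0539 to 0.109), and with rRNA share in the model (0.288).

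The interaction of temperature and light, as the change with warmth at light 100 minus that at light 10, was called above 0 for 4 genes in Atpif4-2 (BCAT4, 2.02 ± 0.62; MAM1, 1.48 ± 0.46; FMO GS-OX3, 1.43 ± 0.48; MYB76), where 11.3% of all genes were. In Atphyb-9 it was called for MYB29 alone (2.17 ± 0.67, edgeR adjusted p = 0.0422), against 3.87%, and its median over the 10 genes was -1.32. In Athy5-2 it was called for MYB28 (1.00 ± 0.17, adjusted p = 2e-05) and MYB76, against 15.7%. The Atphyb-9 call ended with a replicate block and with no filter on low counts, each leaving 0 genes called there, while DESeq2 called 4. Leaving out single libraries gave 2 to 6 called genes in Atpif4-2, 0 to 2 in Atphyb-9 and 1 to 2 in Athy5-2. In Atpif4-2 BCAT4 was not called without replicate 3 at 16 °C (adjusted p = 0.0805) or 1 or 3 at 24 °C (0.0534 and 0.0656) in dim light, and FMO GS-OX3 not without any 1 of 7 libraries (0.0559 to 0.125), replicates 1 and 3 of both dim groups and, in bright light, 2 and 3 at 16 °C and 2 at 24 °C, nor with rRNA share in the model (0.0507). In Atphyb-9 MYB29 was not called without any 1 of 9 libraries (0.0544 to 0.153), all except replicate 3 at 16 °C and 1 at 24 °C in dim light and 1 at 24 °C in bright light. In Athy5-2 MYB76 was not called without replicate 1 at either temperature in dim light (0.063 and 0.0617).

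Against Col-0, most differences past the threshold were in dim light. In Atphyb-9 they were below Col-0 at 16 °C and above it at 24 °C. The Col-0 libraries in these comparisons are those whose warmth and light responses chose the genes, so the sizes, the directions and the calls all draw on that choice. They are given as a description, and nothing is read from the counts against the shares of all genes. At 16 °C and light 10 all 10 genes were past the threshold below Col-0 in Atphyb-9, beside 14.5% of all genes. MAM1 stood at 25.5, 20.5 and 23.4 CPM in Col-0 and at 1.4, 3.46 and 2.83 CPM in Atphyb-9, a log2 difference of -3.16 ± 0.38. CYP83A1 stood at 21.6, 22.4 and 19.6 CPM in Col-0 and at 2.28, 3.33 and 3.08 CPM in Atphyb-9, a difference of -2.87 ± 0.34. The myrosin-cell markers summed to 1259 to 1479 CPM in Col-0 there and to 717 to 819 CPM in Atphyb-9. No library of any of the 10 genes overlapped between the lines, and the share of all genes without overlap was not counted. The count past the threshold was 10 whichever library was left out, a description like the rest.

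The low level in Atphyb-9 was also seen among the mutant lines, without Col-0. At 16 °C and light 10 all 3 Atphyb-9 libraries lay below all 6 of Atpif4-2 and Athy5-2 for 7 of the 10 genes, a position held by 5.24% of all genes. The exceptions were MYB76, MAM3 and CYP79F2. Both this count and the separation by light in the mutant lines were added after the data had been seen. For CYP83A1 the highest Atphyb-9 library stood at 3.33 CPM and the lowest of the other mutants at 11.6 CPM.

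At 24 °C and light 10, where the low Col-0 level chose the genes, 7 were past the threshold above Col-0 in Atpif4-2 and 0 below, beside 2.05% of all genes above. In Atphyb-9 6 were above and 0 below, beside 8.57%. In Athy5-2 8 were above, beside 22.2%, and MYB28 was below (-0.50 ± 0.12), beside 24.3%. The myrosin-cell markers summed to 1053 to 1230 CPM in Col-0 in this condition and to 1456 to 1654 CPM in Atpif4-2. Their sums were lower than in Col-0 in Atphyb-9 (441 to 513 CPM) and in Athy5-2 (460 to 617 CPM), opposite to most of the 10 genes. The part of these markers was not tested. CYP83A1 stood at 1.74, 2.32 and 0.892 CPM in Col-0. It stood at 13, 20.5 and 4.9 CPM in Atpif4-2 (2.96 ± 0.35), at 10.4, 8.51 and 11.1 CPM in Atphyb-9 (2.60 ± 0.35) and at 9.64, 18.4 and 19.3 CPM in Athy5-2 (3.25 ± 0.35). MYB29 was past the threshold in Atpif4-2 (2.84 ± 0.50) and Athy5-2 (2.96 ± 0.54) and not in Atphyb-9 (0.16 ± 0.71), where it stood at 0.35, 0 and 0.14 CPM beside 0.149, 0 and 0.239 CPM in Col-0. In Athy5-2 MAM3 (2.17 ± 0.87) fell short of it without replicate 1 (edgeR adjusted p = 0.0924) or 2 (0.115) of Col-0 or replicate 1 (0.121) or 3 (0.125) of Athy5-2, nor with rRNA share in the model (0.087). The counts were 7 in Atpif4-2, 6 to 7 in Atphyb-9 and 8 to 9 in Athy5-2 when single libraries were left out, the first also without replicate 3 of the warm dim group.

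Other differences from Col-0 were few. They too are a description, since the Col-0 libraries chose the genes. At 16 °C and light 10 MAM3 was lower in Atpif4-2 (-2.17 ± 0.58), 1 of 10 beside 10.6% of all genes, although 8 of the 10 fitted differences there were above 0, and MAM3, CYP79F2 and FMO GS-OX3 were lower in Athy5-2, 3 of 10 beside 13.6%. Col-0 replicate 1 had the highest MAM3 there (5.75 CPM, with 2.15 and 2.28 CPM in the others), and without it MAM3 was called in neither line (edgeR adjusted p = 0.0753 and 0.15). In Athy5-2 MAM3 was not called either without replicate 1 (0.104) or 2 (0.0656) of that line, nor FMO GS-OX3 without Col-0 replicate 3 (0.095) or Athy5-2 replicate 2 (0.0914). At 16 °C and light 100 CYP79F2 (-0.79 ± 0.22) and FMO GS-OX3 (-1.22 ± 0.31) were lower in Atphyb-9, beside 5.55% of all genes. CYP79F2 was not called there without Col-0 replicate 2 (0.0533) or Atphyb-9 replicate 1 (0.0584) or 3 (0.0619). At 24 °C and light 100 CYP79F2 was higher in Atphyb-9 (46.8, 43.3 and 40.8 against 22.3, 26.3 and 23.4 CPM in Col-0; 0.86 ± 0.22), 1 of 10 beside 4.95%, and was not called without Col-0 replicate 1 (0.0518). In Athy5-2 CYP79F2 (48.7, 44 and 43 CPM; 0.91 ± 0.22) and MAM3 (43.9, 35.6 and 44.4 against 7.58, 15.8 and 11.2 CPM; 1.84 ± 0.44) were higher, beside 5.44%. No gene was called in Atpif4-2 at light 100 at 16 °C or 24 °C, or in Athy5-2 at 16 °C and light 100. In these 3 comparisons edgeR also had 0 genes at an unadjusted p under 0.05 and DESeq2 called 0, where edgeR called 4.77%, 0.447% and 22.2% of all genes in either direction. These counts draw on the same Col-0 libraries, and no absence of a difference is read from them.

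**Figure D3:**
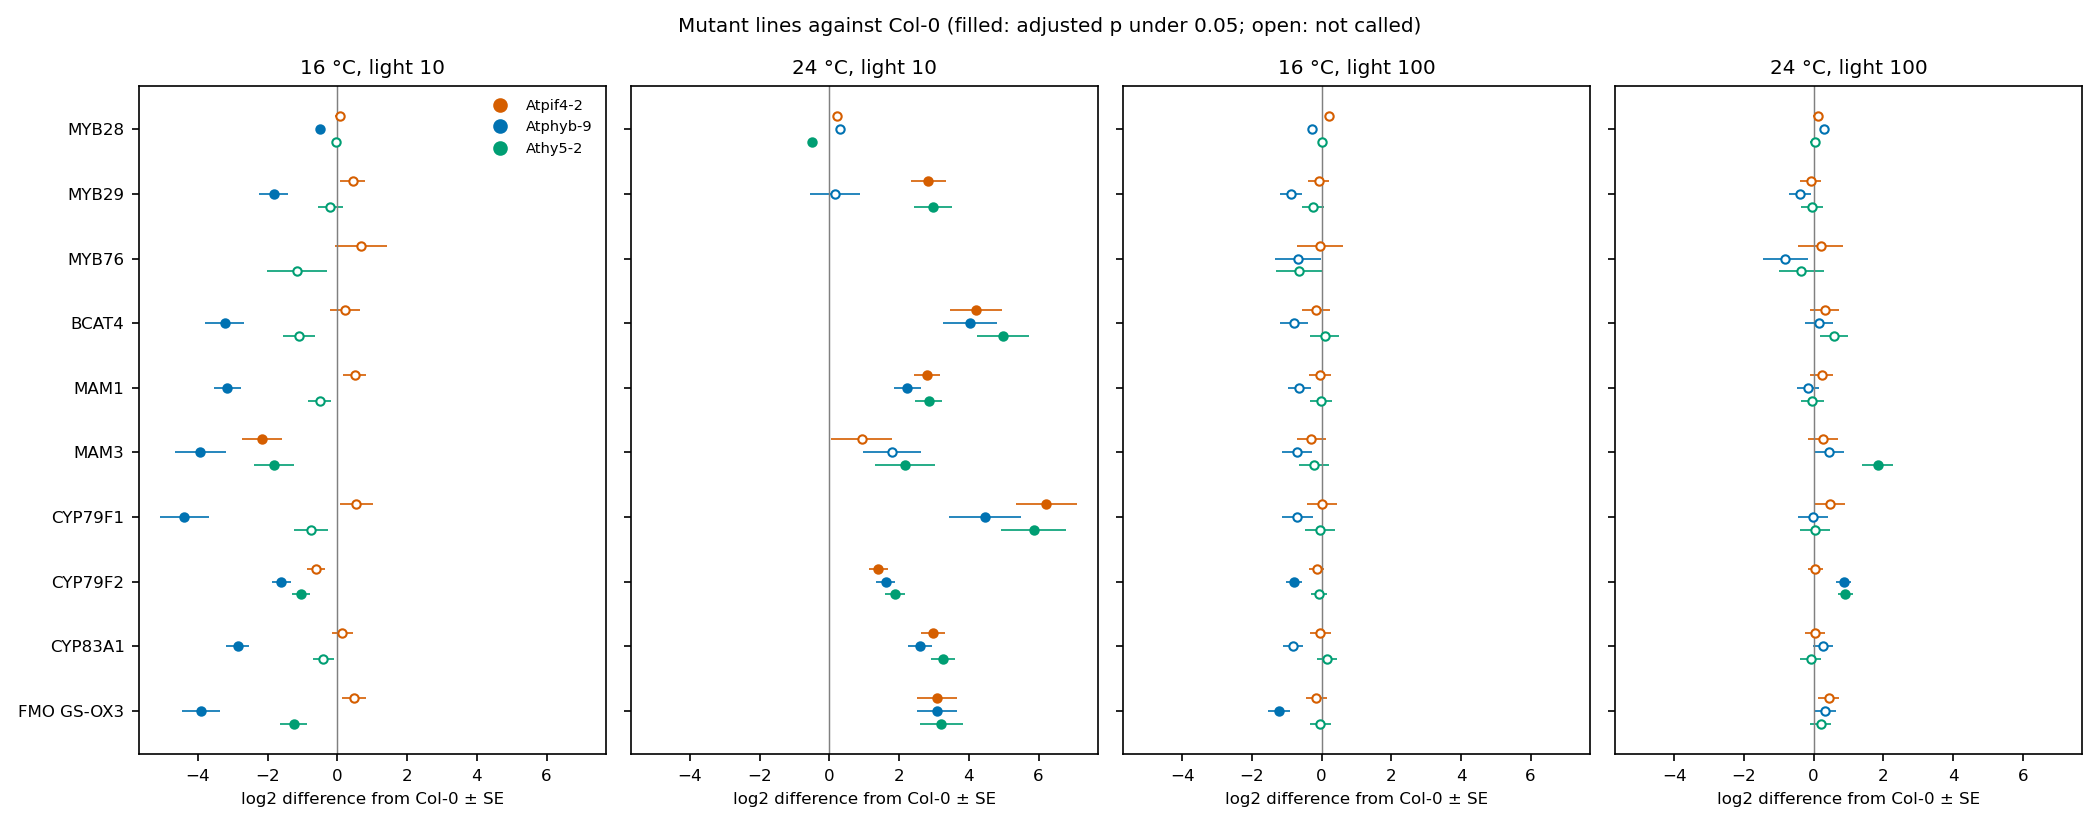
Log2 differences of the 3 mutant lines from Col-0 in the 4 conditions, with standard errors from the edgeR fit; filled points passed an adjusted p of 0.05, shown as a description because the Col-0 libraries chose the genes. MYB76 is left out where a group held 3 counts or fewer. In cool dim light the Atphyb-9 points lie left of 0, in warm dim light most points lie right of it, and at light 100 most lie close to 0.

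MYB76 had no counts in 13 libraries, all in dim light. It had none in the 3 Atphyb-9 libraries at 16 °C and light 10 or in the 3 Athy5-2 libraries at 24 °C and light 10, and folds against these groups are bounds taken against 3 counts over the group. The bounds use the mean of the other group as it stands and leave out its error. At 16 °C light 100 was at least 20.1-fold higher than light 10 in Atphyb-9, and at 24 °C at least 28.7-fold higher in Athy5-2. Warmth at light 10 gave a level at least 2.68-fold lower in Athy5-2 and at least 3.01-fold higher in Atphyb-9, the latter from 9 counts in 1 library (edgeR adjusted p = 0.041 and 0.0795). The Athy5-2 group at 16 °C and light 10 held 13 counts. The call in Athy5-2 ended without replicate 1 or 2 at 16 °C or any replicate at 24 °C (adjusted p from 0.0803 to 0.108). Atphyb-9 at 16 °C and light 10 was at least 9.24-fold lower than Col-0. In Col-0 the group at 24 °C and light 10 held 3 counts, and the ratio of Col-0 at light 100 to it was 78.4 (95% interval 26.6 to 382.5, exact, covering counting error only).

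The 10 genes were much alike in their pattern over the groups. Pearson's r of log2(CPM + 1) over the 16 group means ran from 0.825 to 0.994 over the 45 pairs, with a median of 0.957. The group means share the light contrast on which the genes were chosen in Col-0, so this likeness is a description. The deviations of the 48 libraries from their group means, which hold no group difference, correlated with r from -0.21 to 0.862 (median 0.35). MAM1 and CYP79F1 had the highest value, 0.862, then MAM1 and CYP83A1 with 0.818 and BCAT4 and CYP79F1 with 0.807. MYB76 and MAM3 had the lowest, -0.21. Libraries of a group share their condition and differ in depth and rRNA share, and no test is given.

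Among named genes averaging 1 CPM or more, the 8 outside the set most like the mean profile of the 10 over the 16 group means were FMO GS-OX1 (AT1G65860, r = 0.984), BAT5 (AT4G12030, 0.981), GSTF11 (AT3G03190, 0.98), IPMDH1 (AT5G14200, 0.98), AK3 (AT3G02020, 0.979), DJ1F (AT3G54600, 0.975), IPMI SSU2 (AT2G43100, 0.966) and BGLU18 (AT1G52400, 0.963). FMO GS-OX1, BAT5, GSTF11, IPMDH1 and IPMI SSU2 are on the list of other aliphatic genes. Of the 50 most alike among 18546 genes with that mean, 9 were on that list, and 0 on the lists of indole genes, of regulators and transporters or of sulfur deficiency genes. MYC2, a bHLH partner of the MYB factors, had r = -0.24 and MYC3 0.255. Among the glucosinolate transporters GTR1 had 0.88 and GTR3 -0.02.

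**Figure D4:**
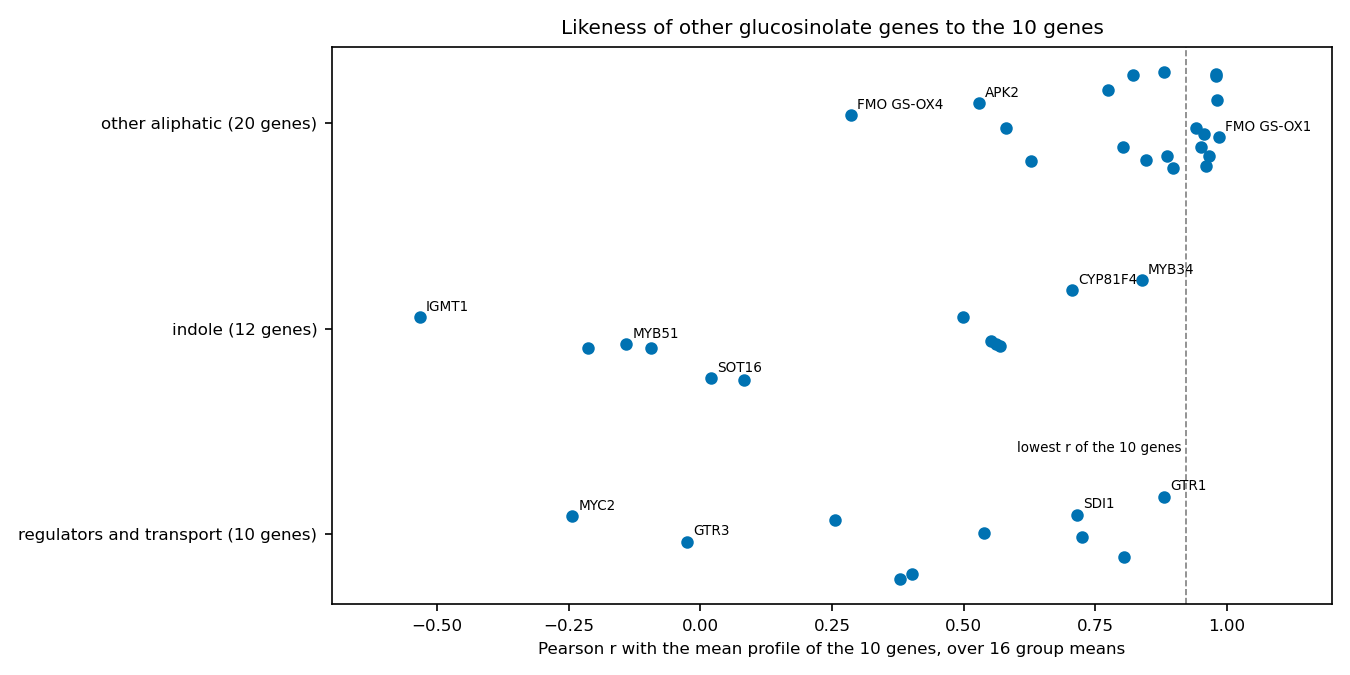
Pearson's r of each listed gene with the mean standardised profile of the 10 genes over 16 group means, by list (20 other aliphatic genes, 12 indole genes, 10 regulators and transporters); the dashed line is the lowest r among the 10 genes themselves, 0.923. The genes furthest right are other aliphatic genes, 9 of them beyond the line. The rest of that list runs down to 0.286 (FMO GS-OX4), and indole genes and regulators spread down to below 0.

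The rest of the aliphatic pathway was set beside the 10 genes from a list of 22 further genes, of which AOP2 is not analysed here and AOP3 had 2 counts in all, leaving 20 tested. In Col-0 light raised 19 of the 20 at 16 °C and 18 at 24 °C and lowered 0, where 17.4% and 14.2% of all genes were called higher. FMO GS-OX1, of the same step as FMO GS-OX3, rose by 4.78 ± 0.36 on the log2 scale at 24 °C (edgeR adjusted p = 5.87e-13) and IPMDH1, the dehydrogenase of chain elongation, by 4.85 ± 0.35 (adjusted p = 1.44e-12). SUR1, the C-S lyase shared with the indole pathway, rose by 1.49 ± 0.14 at 16 °C. FMO GS-OX4 and FMO GS-OX5 were not called at 24 °C (adjusted p = 0.663 and 0.83). The median log2 change of the 20 with light at 24 °C was 1.52 in Col-0, 1.46 in Atpif4-2, 1.27 in Atphyb-9 and 0.84 in Athy5-2, and the counts called higher were 18, 18, 18 and 13, where 14.2%, 10.5%, 19.2% and 30.7% of all genes were.

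With warmth at light 10, 16 of the 20 were lower and 0 higher in Col-0, where 11.4% of all genes were lower. In Atpif4-2 9 were lower, against 13.9%, and 1 higher. In Atphyb-9 14 were higher and 1 lower, against 10.9% and 12.2%. In Athy5-2 7 were higher and 2 lower, against 19.7% and 21.4%. IPMDH1 went from 18 to 21.5 CPM at 16 °C to 1.99 to 2.52 CPM at 24 °C in Col-0, a log2 change of -3.16 ± 0.34 (edgeR adjusted p = 1.36e-08). At light 100, 14 were lower with warmth in Col-0 and 0 higher, where 17% of all genes were lower. The interaction was called above 0 for 5 of the 20 in Col-0 and below 0 for 1, against 4.55% and 2.62% of all genes. At 16 °C and light 10, 17 of the 20 were lower in Atphyb-9 than in Col-0, and 0 higher, where 14.5% of all genes were lower. At 24 °C and light 10, 7 were higher than in Col-0 in Atpif4-2, 11 in Atphyb-9 and 16 in Athy5-2, against 2.05%, 8.57% and 22.2% of all genes, and 0, 1 and 0 were lower.

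Of the 12 genes of indole glucosinolates, which are made from tryptophan, warmth at light 10 lowered 5 in Col-0, against 11.4% of all genes, and raised 1. In Atpif4-2 it lowered 2, against 13.9% of all genes, and raised 3. The shares of all genes called higher in Col-0 and Atpif4-2 are not given here. In Atphyb-9 warmth raised 8 and lowered 0, where 10.9% of all genes were higher. In Athy5-2 it raised 10 and lowered 2, against 19.7% and 21.4% of all genes, with SOT16, the sulfotransferase of the last core step, up by 2.83 ± 0.21 (edgeR adjusted p = 5.86e-13), and light at 24 °C lowered 8 and raised 2, where 28% of all genes were lower and all 10 aliphatic genes rose. SOT16 then fell by 2.18 on the log2 scale (SE 0.21). In Col-0 light at 24 °C raised 6 of the 12, against 14.2% of all genes, and lowered 0, MYB34 most clearly (1.45 ± 0.16). The 11 sulfur deficiency genes, which plants raise when sulfur is short, rose with light too, 10 at 16 °C and 8 at 24 °C in Col-0 and 10 at 24 °C in Athy5-2, where 17.4%, 14.2% and 30.7% of all genes did. APR3, a sulfate-reducing enzyme gene, rose by 1.12 ± 0.12 in Col-0 at 24 °C and by 1.92 ± 0.13 in Athy5-2. With the rRNA share of each library as a covariate, 136 of the 147 calls of the 10 genes in the mutant comparisons kept their direction and side of the threshold. The 147 include the calls against Col-0, which are given as a description. The part of the root and myrosin-cell markers in these results was not tested.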

How the data were processed

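Per the labels' protocols, total RNA came from NucleoSpin RNA Plant columns and was read by BGI on DNBseq in pairs of 100 bases. Of tools, the submitters' processing notes list FastQC 0.11.5 and HISAT2 2.1.0. The sources used here do not give the counting program, build, annotation or strand setting. The deposited table holds whole-number counts per gene and library, with no normalization by the authors found in the values, and 3604 of its 32833 genes had no count.

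A model with a mean for each of the 16 groups was fitted to the counts of 48 libraries in edgeR 4.0.16, under R 4.3.3 with limma 3.58.1 (32 residual degrees of freedom), filterByExpr with a minimum count of 10, TMM factors from 0.501 to 1.51, a trended dispersion and robust quasi-likelihood F tests. P-values were adjusted by Benjamini-Hochberg over 22828 genes, and genes were called at an adjusted p under 0.05. The common biological coefficient of variation was 0.204. Errors of log2 changes are standard errors. The fit was tested on simulated data. Fits with single libraries left out kept the dispersion trend of all libraries and re-estimated the quasi-likelihood dispersions. DESeq2 1.42.0, RLE size factors, no filter, a replicate block, the rRNA share as covariate and fits on the lines compared alone were alternatives.

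The 10 genes and all lists were chosen with earlier results of these data known. All 10 are named. From other lists the called genes with the smallest adjusted p are named, or genes on the likeness ranking, by a rule that takes 8 nearest genes; the values of MYC2, MYC3, GTR1, GTR3 and the uncalled genes were picked after they were seen. Promoter windows are RefSeq's TAIR10.1. The closest 2 libraries within a group differed by a chi-square of 11.5 per degree of freedom over genes, so no library was counted as a repeat of another. No table of protein sequences was used here.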

Additional observations from a re-analysis of the deposited data

Results flagged for a closer look

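Results are listed here because a difference between the responses of 2 mutant lines was itself tested and called by edgeR at an adjusted p under 0.05. The change with warmth at light 10 differed between Atphyb-9 and Atpif4-2 for 8 of the 10 genes, where 5.78% of all genes were called higher, and between Athy5-2 and Atphyb-9 for 5, where 8.48% were called lower. It differed between Athy5-2 and Atpif4-2 for 3, which is no larger a share than the 33.9% of all genes called in either direction, and for 0 with rRNA share in the model. The change with light at 24 °C differed for 1 gene between Atphyb-9 and Atpif4-2 (MYB29), for 1 between Athy5-2 and Atpif4-2 (MYB28) and for 2 between Athy5-2 and Atphyb-9 (MYB28 and MYB29), where 1.71% of all genes were called higher, 17.6% higher and 15.7% in either direction. With rRNA share in the model the last 2 counts were 0 and 1. The rRNA share of the libraries differed between these groups as well, being 12.6% to 26.1% in Atphyb-9, 23.3% to 33.4% in Athy5-2 and 0.902% to 4.45% in Atpif4-2 at 24 °C and light 10.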

How the results depend on the processing

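Of the 147 calls of the 10 genes in the mutant comparisons, RLE size factors kept 147, DESeq2 146, a replicate block 146, no filter on low counts 143, and the rRNA covariate and fits on the lines compared alone 136 each. The 147 include the calls against Col-0, whose libraries chose the genes, so for those the number kept is a description only. No call reversed. The median of all genes moved by at most 0.0474 on the log2 scale with RLE. Deviations of same-numbered libraries correlated from -0.42 to 0.384, with medians near 0, so the replicate numbers did not pair the libraries throughout. Pairing within part of the groups was not tested. The replicate block left 0 genes called for the Atphyb-9 interaction, where 1 was called without it, and moved no other count by over 1.5 times. With the rRNA covariate the Col-0 median with light was 3.23 at 16 °C and 6.504 at 24 °C, and the counts were 2 for the Atphyb-9 interaction, 0 for warmth at light 100 in Athy5-2, 0 for Athy5-2 against Atpif4-2 in both responses and 1 for Athy5-2 against Atphyb-9 in light at 24 °C. With no filter the counts were 1 for warmth at light 100 in Atpif4-2 and 0 for the Atphyb-9 interaction. Fits on the lines compared alone gave 1 for warmth at light 100 in Atpif4-2, 2 for its interaction, 2 for warmth at light 100 in Athy5-2 and 4 for Atphyb-9 against Col-0 at 16 °C and light 100. DESeq2 gave 1, 4, 8 and 2 for warmth at light 100 in Atpif4-2, the Atphyb-9 interaction, warmth at light 10 in Atphyb-9 and warmth at light 100 in Athy5-2, and 2 and 4 for Atpif4-2 at 16 °C and light 10 and Atphyb-9 at 16 °C and light 100 against Col-0. The cause of these changes was not tested.

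Leaving out single libraries kept 938 of 1044 values of these calls, those against Col-0 among them. Of the 147 calls, 31 were lost in at least 1 of these fits. The Col-0 median with warmth at light 10 ran from -4.12 to -3.69. Counts ran from 4 to 8 (warmth at light 10), 0 to 2 (warmth at light 100) and 2 to 6 (interaction) in Atpif4-2. They ran from 0 to 2 for the interaction in Atphyb-9, and in Athy5-2 from 1 to 2 for warmth at light 10, 0 to 1 for warmth at light 100 and 1 to 2 for the interaction. Against Col-0 they ran from 0 to 2 in Atpif4-2 and 1 to 5 in Athy5-2 at 16 °C and light 10, and in Atphyb-9 from 1 to 2 at 16 °C and 0 to 1 at 24 °C in light 100. Between lines they ran from 0 to 1 for Atphyb-9 against Atpif4-2 with light, 1 to 6 for Athy5-2 against Atpif4-2 with warmth and 1 to 4 for Athy5-2 against Atphyb-9 with light. Low counts limit MYB76 most. They also limit genes such as CYP79F1 (7 counts), FMO GS-OX3 (15) and BCAT4 (16) in Col-0 at 24 °C and light 10. In Atphyb-9 at 16 °C and light 10, FMO GS-OX3 held 14 counts, MAM3 19 and CYP79F1 27.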
